A study of Xenopus tropicalis with 24 samples.

Results

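The Hedgehog pathway genes described here are the ligands *shh* and *ihh*, the receptor *ptch1*, the signal transducer *smo*, the transcription factors *gli1*, *gli2* and *gli3* and the inhibitor *hhip*. They were listed by gene symbol and not by a measured value, though earlier results of these data were known when the list was made. All 8 of the 8 symbols were found among the 26531 genes counted. Gene expression was measured by RNA-seq in 24 libraries of *Xenopus tropicalis* tadpole tail, with 2 libraries for each of 12 conditions. Wild-type tadpoles at premetamorphic stage 56 (WT56) and at stage 61, the climax of metamorphosis (WT61), were compared with TRDKO tadpoles at the same stages (TRDKO56 and TRDKO61). TRDKO tadpoles carry a knockout of both thyroid hormone receptor (TR) genes, *thra* and *thrb*, in every cell, and since they were bred from parents lacking *thra*, the wild-type tadpoles were not siblings of theirs. Every tail was amputated and then collected at 0, 6 or 24 hours post amputation (hpa), as the new tissue together with a thin strip of old tail next to the cut. WT56, TRDKO56 and TRDKO61 tails are able to regenerate and WT61 tails are not, and the question asked of each gene was how its level changed after amputation and whether that differed by stage or by TR. Tails of several tadpoles were used for each condition, and how they were divided between the 2 libraries is not stated in full, so p-values measure the spread between these libraries, part of which may be technical.

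Hedgehog proteins are secreted signals that bind the receptor Patched on the receiving cell, which releases Smoothened from inhibition and, through the primary cilium, shifts the GLI proteins from repressing to activating their targets. In vertebrates *ptch1*, *hhip* and *gli1* are themselves targets of the pathway, and the first pair of them act as brakes on it. In vertebrate embryos, Sonic hedgehog is made by the notochord and the floor plate of the spinal cord, and patterns the neural tube and the sclerotome, which gives rise to the axial skeleton. Which cells of these tadpole tails made it was not tested.

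The 24 libraries held a median of 12576320 counts. The deepest reached 20731438, and the shallowest, replicate 2 of WT56 at 0 hpa, had 3956148. The biological coefficient of variation between the 2 libraries of a condition was 18.2 to 22.2% at 6 hpa and 10.9 to 18.8% at 0 and 24 hpa. It was estimated jointly over genes above a minimum mean count, so it does not cover genes with few counts. Both targeted genes were still counted in TRDKO tails, so the counts do not show the mutated bases. *thra* was at 4.07 to 6.43 CPM (counts scaled to the size of the library) in WT56, 5.91 to 7.38 in TRDKO56, 10.3 to 13.9 in WT61 and 7.05 to 10.5 in TRDKO61. *thrb* was at 4.76 to 12.4 CPM in WT56, 13.8 to 28.9 in TRDKO56, 120 to 217 in WT61 and 60.7 to 112 in TRDKO61. The tissue label fitted the markers of tail: summed over each list, muscle genes reached at least 4857 CPM, epidermal genes at least 4094 CPM and posterior Hox genes at least 168 CPM in every library.

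By the coordinates of the counted annotation (genome v10.0), *shh* lies on chromosome 6 from 17002882 to 17023309 (minus strand), and *gli3* lies on the same chromosome from 57560790 to 57693590 (plus strand). On chromosome 9 are *ihh*, from 82932547 to 82975213 (minus strand), and *gli2*, from 89202796 to 89284610 (plus strand). Chromosome 1 holds *hhip*, from 58890582 to 58974771 (plus strand), and *ptch1*, from 135813286 to 135893523 (minus strand). The gene for *smo* lies on chromosome 3 from 87277583 to 87303653 (minus strand) and that for *gli1* on chromosome 2 from 140318308 to 140391620 (plus strand). The counted exons added up to between 2487 bases, in *hhip*, and 9566 bases, in *ptch1*, and 0 of the 8 genes shared exon bases with another annotated gene.

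Of the 8 genes, *smo*, *gli2*, *gli3*, *ptch1*, *shh*, *gli1* and *hhip* were detected well enough to be tested in every comparison, and *ihh* was near the limit of detection. To compare genes, CPM were divided by exon length in kilobases. At 0 hpa in WT56, *smo* had the highest level, at a mean of 4.59 CPM per kb, followed by *shh* at 4.25, *gli2* at 3.27, *gli3* at 2.50, *ptch1* at 1.95, *hhip* at 1.29, *gli1* at 0.811 and *ihh* at 0.0951 CPM per kb. In that order the libraries of *smo* and *shh* overlapped, and those of every other pair of neighbours did not.

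The order of these per-length levels changed in part in the other 3 groups at 0 hpa. *smo* stood first at 5.14 CPM per kb in TRDKO56 and 4.69 in TRDKO61, whereas *gli2*, the main activator among the GLI proteins, stood first in WT61, at 4.85 against 4.15 CPM per kb for *smo*. *shh* stood below *smo* and *gli2* in these groups, at 2.68 in WT61, 2.42 in TRDKO56 and 2.7 CPM per kb in TRDKO61, and in WT61 and TRDKO56 its libraries overlapped those of *gli3*. *gli1*, *hhip* and *ihh* had the lowest levels in TRDKO56 and TRDKO61, and *ihh*, the ligand known for its role in growing cartilage, was last in all 4 groups at 0 hpa. Its counts were 2 to 18 per library, and its level over the 24 libraries was 0.191 to 1.12 CPM.

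**Figure D1:**
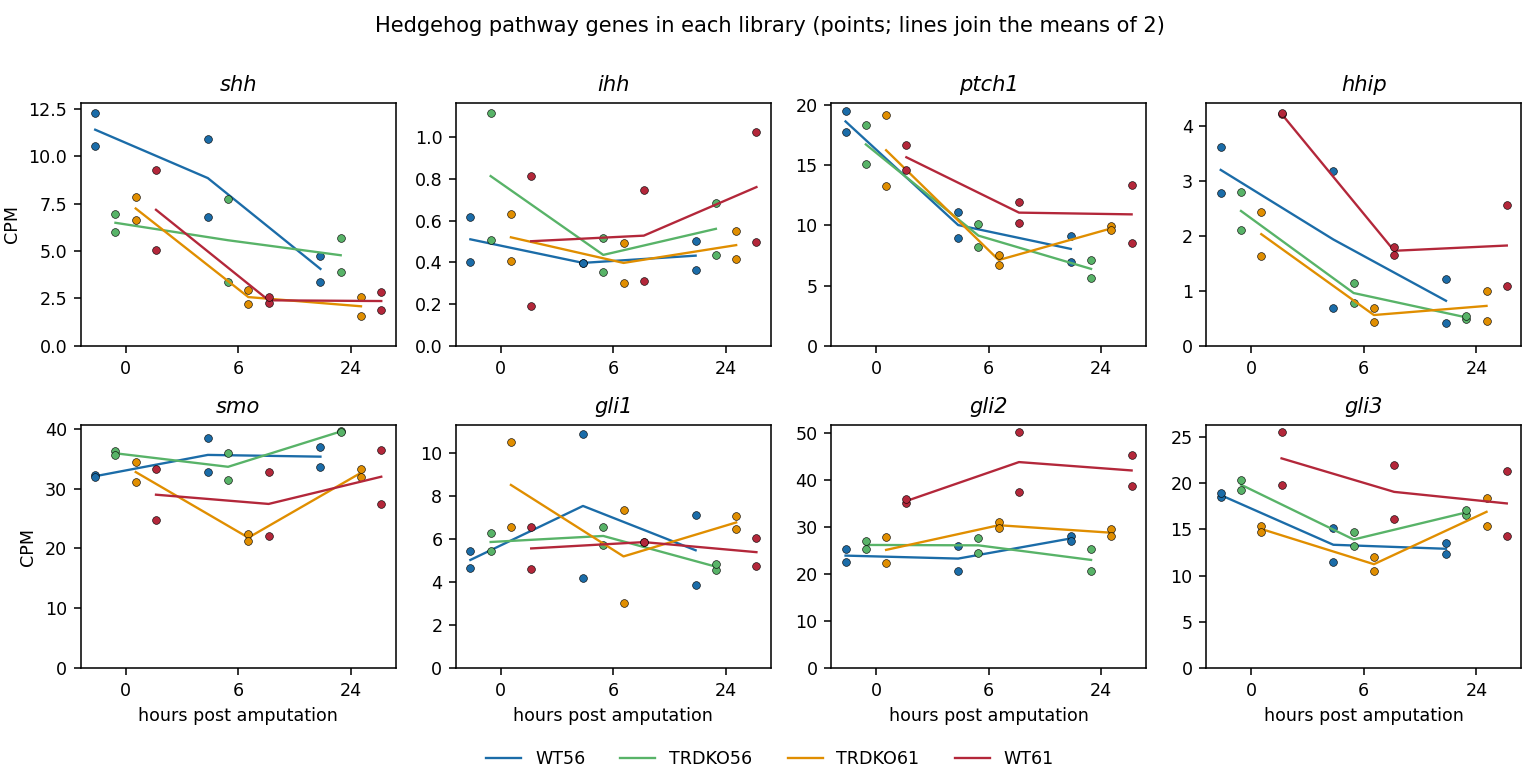
Level of each of the 8 genes in each of the 24 libraries (points, CPM, linear axes from 0) against hours post amputation, drawn at even steps, with 1 colour per group and lines joining the means of 2 libraries. *ptch1* was at 13.3 to 19.5 CPM in the 8 libraries at 0 hpa and at 6.69 to 11.96 CPM in the 8 at 6 hpa, *gli2* was at 35.0 CPM or more only in the 6 WT61 libraries, and *smo*, *gli1* and *ihh* showed no common course.

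After amputation the genes that changed in more than 1 comparison were the ligand *shh*, the receptor *ptch1* and the inhibitor *hhip*, and each fell. Over 12 time comparisons (6 versus 0, 24 versus 6 and 24 versus 0 hpa in each of 4 groups), 16 of 86 tests passed an adjusted p of 0.05 and all 16 were decreases: 6 for *shh*, 5 for *ptch1*, 3 for *hhip* and 1 each for *smo* and *gli3*. Over all genes and the same 12 comparisons, 18.2% of tests passed and 8.86% were lower, so 16 of 86 is near the share of all genes. In 12 of the 16 calls the level fell by more than a factor of 2, that is by more than 1.0 on the log2 scale, and 9.02% of all tests passed with a change that large in either direction. Differences are given as log2 fold changes (log2 FC) ± standard error with the Benjamini-Hochberg adjusted p of edgeR's quasi-likelihood test. The standard error was derived as the absolute log2 FC over the square root of that test's F statistic. The 3 time comparisons of a group share libraries, so they are not independent of each other. In these bulk samples, fewer expressing cells and less RNA per cell cannot be told apart.

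At 6 hpa, 1 of 7 genes tested passed in WT56, 1 in WT61, 1 in TRDKO56 and 4 in TRDKO61. Over all genes tested, 18.9%, 7.16%, 15.4% and 14.9% passed in those groups, in which 8.66%, 3.06%, 6.81% and 6.17% were lower. Between 6 and 24 hpa only WT56 had a gene that passed, *shh*, where 26.1% of all genes did and 13.3% were lower. The counts were 0 of 7 in WT61, TRDKO56 and TRDKO61, where 1.82%, 22.8% and 4.01% of all genes passed, with an unadjusted p under 0.05 for 0, 1 (*ptch1*) and 2 (*smo* and *gli3*) genes. DESeq2 called 1 of these, *smo* in TRDKO61. At 24 against 0 hpa, 4 of 7 genes passed in WT56, 1 of 7 in WT61, 2 of 8 in TRDKO56 and, again of 8, only *shh* in TRDKO61. The shares of all genes were 45.6%, 19.1%, 34.2% and 9.08%, of which those lower made up 22.9%, 10.3%, 17.7% and 3.52% of genes tested. The median log2 FC of the tested genes at 24 hpa was -0.56 in WT56, -0.36 in WT61, -0.43 in TRDKO56 and -0.18 in TRDKO61 and the median of all genes lay within 0.03 of 0 in each.

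*shh*, the ligand known from the notochord and floor plate of embryos, was highest in WT56 at 0 hpa, at 12.3 and 10.5 CPM in the 2 libraries. It was at 6.77 and 10.9 CPM at 6 hpa and 4.74 and 3.37 CPM at 24 hpa. The 0 and 6 hpa libraries of WT56 overlapped, and both 24 hpa libraries lay below all 4 of them. In WT61, *shh* was at 5.07 and 9.27 CPM at 0 hpa, 2.24 and 2.56 CPM at 6 hpa and 2.85 and 1.88 CPM at 24 hpa. TRDKO61 had 7.87 and 6.61 CPM at 0 hpa, 2.20 and 2.95 CPM at 6 hpa and 1.58 and 2.599 CPM at 24 hpa. In both stage 61 groups the 4 libraries after amputation lay below the pair at 0 hpa. TRDKO56 had 6.95 and 6.02 CPM at 0 hpa, 3.37 and 7.76 CPM at 6 hpa and 3.87 and 5.69 CPM at 24 hpa, and in this group the 6 hpa libraries lay on either side of the others.

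The fall of *shh* passed the test at 6 hpa in WT61 (log2 FC = -1.60 ± 0.36, adjusted p = 0.0339) and TRDKO61 (log2 FC = -1.46 ± 0.38, adjusted p = 0.0285), and at 24 hpa in WT56 (log2 FC = -1.55 ± 0.31, adjusted p = 0.0018), WT61 (log2 FC = -1.61 ± 0.32, adjusted p = 0.0044) and TRDKO61 (log2 FC = -1.81 ± 0.31, adjusted p = 0.00944). In WT56 it also passed between 6 and 24 hpa (log2 FC = -1.15 ± 0.33, adjusted p = 0.0379), and did not pass at 6 hpa (log2 FC = -0.38 ± 0.34, adjusted p = 0.47). In TRDKO56 the values were -0.23 ± 0.37 (adjusted p = 0.723) at 6 hpa and -0.50 ± 0.30 (adjusted p = 0.233) at 24 hpa, and neither passed. A different timing in WT56 and WT61 is not shown. The WT61 change minus the WT56 change was -1.22 ± 0.49 (adjusted p = 0.406) for 6 versus 0 hpa. For 24 versus 6 hpa it was 1.17 ± 0.50 (adjusted p = 0.259). The WT56 decrease at 24 hpa still passed when any single library was left out. The call at 6 hpa was lost whichever of the 4 libraries was left out, in WT61 with log2 FC between -1.97 and -1.10 and in TRDKO61 between -1.69 and -1.28. At 24 hpa it was lost in WT61 without 0 hpa replicate 2 (-1.08) and in TRDKO61 without 0 hpa replicate 1 (-1.68) or 24 hpa replicate 1 (-1.49), and the WT56 call between 6 and 24 hpa without 6 hpa replicate 2 (-0.74) or either 24 hpa library (-1.39 and -0.90). With only the 4 libraries compared in the fit, the WT61 call at 6 hpa and the WT56 call between 6 and 24 hpa were lost, and the latter was also lost with the replicate number as a block.

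Markers of notochord and cartilage were summed (10 genes measured, none at 0 over the series and *matn1* below a mean of 1 CPM). Their sum fell after amputation in each group, as did the mean of *shh*, but not in proportion to it. In WT56 this sum was 1753 to 1892 CPM at 0 hpa, 902 to 990 at 6 hpa and 219 to 258 at 24 hpa, and in TRDKO56 it was 1036 to 1243, 491 to 589 and 365 to 380 CPM. In WT61 it was 450 to 606, 102 to 210 and 148 to 167 CPM, and in TRDKO61 384 to 434, 70.5 to 80.2 and 73.0 to 148 CPM. The sum was thus lower at both times after amputation in all 4 groups, as *shh* was by its mean. In TRDKO56, where *shh* passed at neither time, the mean sum went from 1139 CPM at 0 hpa to 372 CPM at 24 hpa. At 0 hpa the mean sum was 409 CPM in TRDKO61 against 1139 CPM in TRDKO56, with *shh* at means of 7.24 and 6.49 CPM. The part of this sum in the *shh* result was not tested. The sum of floor plate markers, among which *foxa2* was below a mean of 1 CPM in most conditions, was 108.5 to 129 CPM in the 8 libraries at 0 hpa, 85.3 to 109.5 at 6 hpa and 98.9 to 141 at 24 hpa. Markers of other cell types moved with time as well. The leukocyte sum (10 genes) was 372 to 764 CPM at 0 hpa, 711 to 1818 at 6 hpa and 835 to 1323 at 24 hpa, and the muscle sum (12 genes) was 10270 to 34140, 6882 to 33270 and 4857 to 10170 CPM. Within each group the leukocyte sum was higher and the muscle sum lower at 24 than at 0 hpa, with no overlap between the libraries. None of the genes of these 2 lists was at 0 throughout, and the part of the floor plate, leukocyte and muscle markers in the decreases of *shh*, *ptch1* and *hhip* was not tested.

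**Figure D2:**
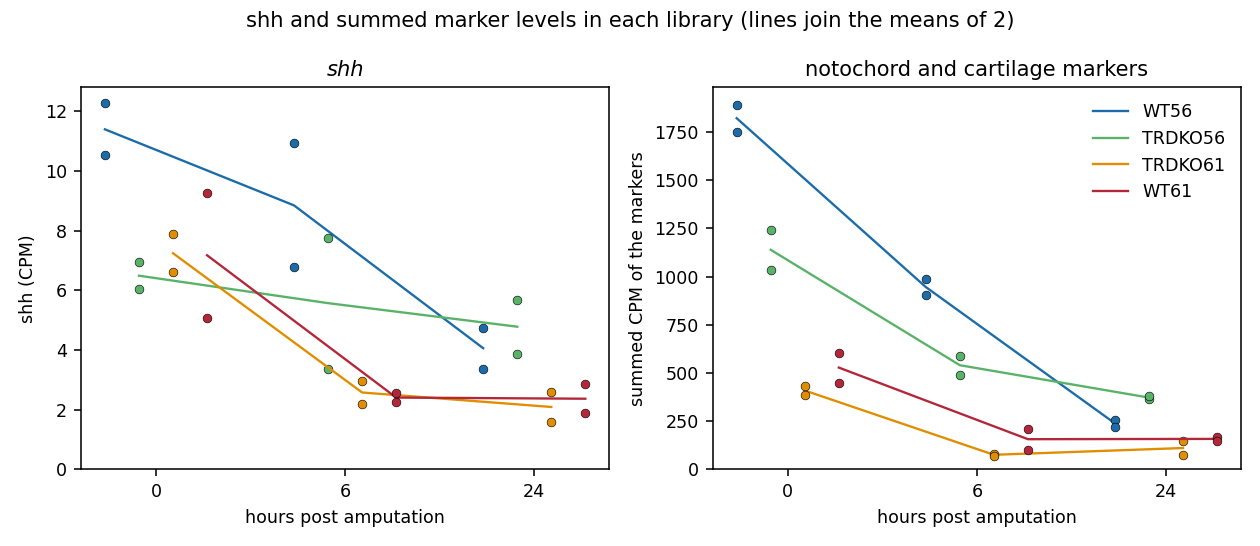
*shh* (CPM, left) and the summed CPM of notochord and cartilage markers (right) in each library (points, linear axes from 0) against hours post amputation, drawn at even steps, with lines joining the means of 2 libraries and 1 colour per group. The notochord and cartilage sum fell from 1753 to 1892 CPM at 0 hpa to 219 to 258 CPM at 24 hpa in WT56, where *shh* went from 12.3 and 10.5 to 4.74 and 3.37 CPM.

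*ptch1*, the receptor of Hedgehog ligands and a target of the pathway, was lower in every library after amputation than in either 0 hpa library of the same group. At 0 hpa it was at 17.8 and 19.5 CPM in WT56, 14.6 and 16.7 CPM in WT61, 15.1 and 18.3 CPM in TRDKO56 and 13.3 and 19.2 CPM in TRDKO61. At 6 hpa the values were 8.96 and 11.1 CPM in WT56, 11.96 and 10.2 CPM in WT61, 10.1 and 8.21 CPM in TRDKO56 and 7.58 and 6.69 CPM in TRDKO61. The 8 libraries at 6 hpa, from 6.69 to 11.96 CPM, all lay below the 8 at 0 hpa, from 13.3 to 19.5 CPM. By 24 hpa it was at 9.13 and 6.98 CPM in WT56, 13.3 and 8.52 CPM in WT61, 5.67 and 7.12 CPM in TRDKO56 and 9.93 and 9.59 CPM in TRDKO61. Within each group the 24 hpa libraries lay below those at 0 hpa and, except in TRDKO56 and TRDKO61, overlapped those at 6 hpa: they were lower than at 6 hpa in TRDKO56 and higher in TRDKO61.

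The decrease of *ptch1* at 6 hpa passed the test in WT56 (log2 FC = -0.88 ± 0.19, adjusted p = 0.0164), TRDKO56 (log2 FC = -0.88 ± 0.25, adjusted p = 0.0367) and TRDKO61 (log2 FC = -1.16 ± 0.24, adjusted p = 0.0124), and was -0.50 ± 0.18 (adjusted p = 0.13) in WT61. At 24 hpa it passed in WT56 (log2 FC = -1.23 ± 0.23, adjusted p = 0.000934) and TRDKO56 (log2 FC = -1.45 ± 0.23, adjusted p = 0.00225), and these 2 calls held when any single library was left out. The values at 24 hpa were -0.72 ± 0.22 (adjusted p = 0.0697) in TRDKO61 and -0.52 ± 0.21 (adjusted p = 0.106) in WT61. At 6 hpa the call was lost in WT56 without 0 hpa replicate 1 (-0.96), 0 hpa replicate 2 (-0.82) or 6 hpa replicate 1 (-0.73), in TRDKO61 without 0 hpa replicate 2 (-0.92) or 6 hpa replicate 2 (-1.06), and in TRDKO56 whichever of the 4 libraries was left out (-1.04 to -0.74).

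*smo* encodes the transducer that Patched holds in check. It was at 21.2 to 39.7 CPM over the 24 libraries, and its log2 FC after amputation lay between -0.56 and 0.58. The single call was in TRDKO61 at 6 hpa, where it went from 31.0 and 34.5 CPM at 0 hpa to 22.3 and 21.2 CPM (log2 FC = -0.56 ± 0.16, adjusted p = 0.0418). At 24 hpa the level was 31.99 and 33.3 CPM (log2 FC = 0.58 ± 0.14, adjusted p = 0.0581 against 6 hpa), within the range at 0 hpa. The call was lost whichever of its 4 libraries was left out (-0.64 to -0.52), with the replicate number as a block and when only those 4 libraries were fitted.

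Of the GLI transcription factors only *gli3* passed a time comparison, and in 1 group. *gli3*, the main repressor of the family, went in WT56 from 18.5 and 18.9 CPM at 0 hpa to 15.1 and 11.5 CPM at 6 hpa and 12.3 and 13.5 CPM at 24 hpa. Both later pairs lay below the first, and the difference at 24 hpa passed the test (log2 FC = -0.56 ± 0.21, adjusted p = 0.044) but was lost whichever of its 4 libraries was left out (-0.60 to -0.46), under DESeq2, with the replicate number as a block and in a fit to all 24 libraries. Over the 12 time comparisons its log2 FC was negative in 9 and lay between -0.56 and 0.59.

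*gli1*, which amplifies the signal in cells that receive it, passed no time comparison: its log2 FC lay between -0.70 (adjusted p = 0.251, TRDKO61 at 6 hpa) and 0.56 (adjusted p = 0.411, WT56 at 6 hpa). In WT56 it was at 5.43 and 4.64 CPM at 0 hpa, 4.18 and 10.9 CPM at 6 hpa and 7.12 and 3.85 CPM at 24 hpa, and in TRDKO61 at 6.55 and 10.5 CPM, 7.35 and 3.05 CPM and 7.06 and 6.50 CPM. The 2 libraries of WT56 at 6 hpa stood far apart, and without the higher the log2 FC was -0.30. *gli2* passed no time comparison either, with log2 FC between -0.24 and 0.31. *ihh* was tested at 24 hpa in TRDKO56 and TRDKO61 only, with log2 FC of -0.54 and -0.05.

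*hhip* encodes a membrane protein that binds Hedgehog ligands and so removes them from the receptor, and its level was low, at 7 to 73 counts per library. In WT56 it was at 3.62 and 2.78 CPM at 0 hpa, 0.697 and 3.18 CPM at 6 hpa and 1.22 and 0.421 CPM at 24 hpa, and in TRDKO56 at 2.11 and 2.80 CPM, 0.778 and 1.15 CPM and 0.490 and 0.548 CPM. In WT61 it was at 4.21 and 4.23 CPM, 1.81 and 1.65 CPM and 2.56 and 1.09 CPM, and in TRDKO61 at 2.44 and 1.63 CPM, 0.682 and 0.442 CPM and 0.457 and 0.999 CPM. Both 24 hpa libraries lay below both 0 hpa libraries in each group, and so did those at 6 hpa except in WT56, where replicate 2 lay between the 0 hpa pair.

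The decrease of *hhip* passed the test at 24 hpa in WT56 (log2 FC = -2.08 ± 0.51, adjusted p = 0.00576) and TRDKO56 (log2 FC = -2.30 ± 0.49, adjusted p = 0.0077) and at 6 hpa in TRDKO61 (log2 FC = -1.88 ± 0.45, adjusted p = 0.0217). The other values at 24 hpa were -1.14 ± 0.40 (adjusted p = 0.0687) in WT61 and -1.52 ± 0.44 (adjusted p = 0.0616) in TRDKO61. At 6 hpa they were -0.77 ± 0.57 (adjusted p = 0.383) in WT56, -1.27 ± 0.51 (adjusted p = 0.159) in WT61 and -1.37 ± 0.45 (adjusted p = 0.0639) in TRDKO56. The WT56 call was lost without 0 hpa replicate 1 (-1.82), the TRDKO56 call without 0 hpa replicate 2 (-2.07) or 24 hpa replicate 1 (-2.21), and the TRDKO61 call without 0 hpa replicate 1 (-1.54) or 6 hpa replicate 2 (-1.56).

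**Figure D3:**
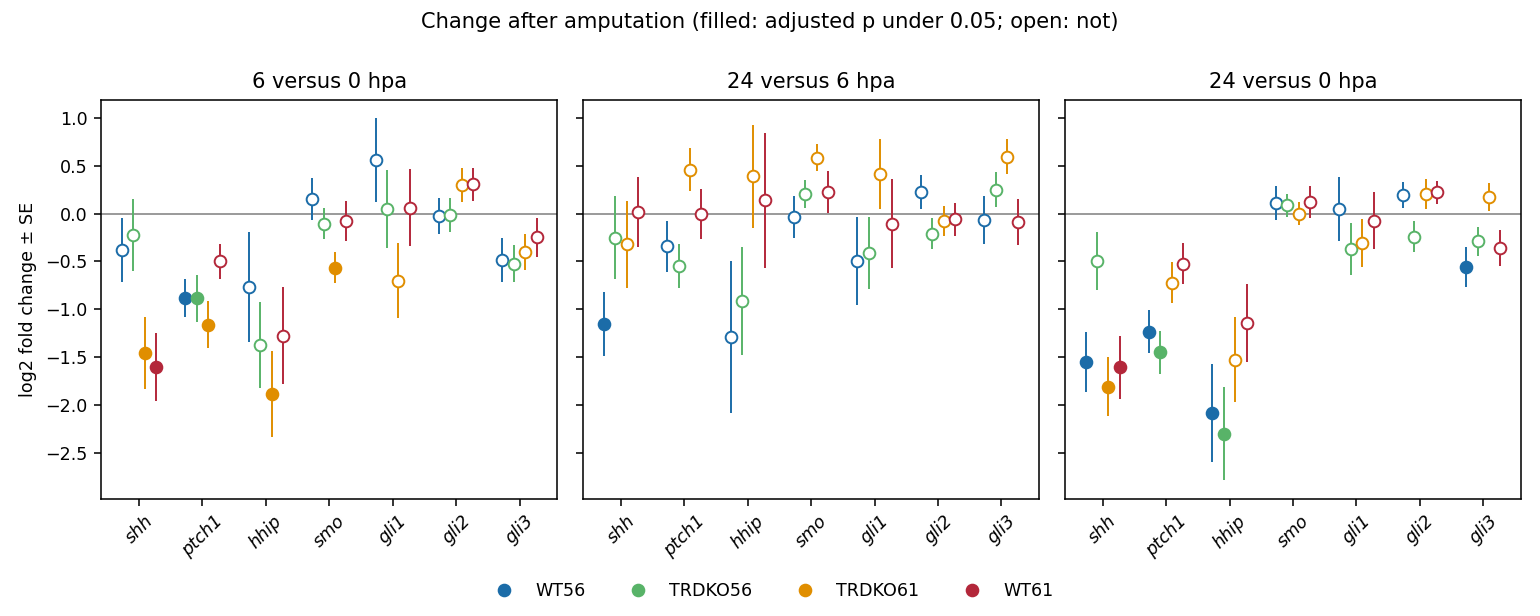
Log2 FC after amputation (vertical axis, bars ± 1 standard error) of the 7 genes other than *ihh* in the 4 groups for 6 versus 0, 24 versus 6 and 24 versus 0 hpa, with filled points where the adjusted p was under 0.05. The 16 filled points all lie below 0, and *shh* at 24 versus 0 hpa ranged from -1.81 in TRDKO61 to -0.50 in TRDKO56, where it did not pass.

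A common course was also estimated as the mean of the 4 groups' changes in 1 fit to the 24 libraries, a comparison added after the data had been seen. At 6 hpa *shh* had a mean log2 FC of -0.92 ± 0.20 (adjusted p = 0.000812), *ptch1* of -0.86 ± 0.12 (adjusted p = 1.09e-05), *hhip* of -1.33 ± 0.29 (adjusted p = 0.000976) and *gli3* of -0.42 ± 0.10 (adjusted p = 0.0023). At 24 hpa the means against 0 hpa were -1.34 ± 0.20 (adjusted p = 2.21e-05) for *shh*, -0.96 ± 0.12 (adjusted p = 2.87e-06) for *ptch1* and -1.74 ± 0.29 (adjusted p = 7.91e-05) for *hhip*, while *gli3* was at -0.24 ± 0.10 (adjusted p = 0.054). Thus 4 of 8 genes passed at 6 hpa, where 50.1% of all genes did and 25.2% were lower, and 3 of 8 at 24 hpa, where 54.0% did and 24.6% were lower. Between 6 and 24 hpa the single call was *smo* (log2 FC = 0.26 ± 0.09, adjusted p = 0.0241), beside 46.6% of all genes. The calls of *shh*, *ptch1* and *hhip*, and that of *gli3* at 6 hpa, held in 29 of 29 other settings and with any 1 of the 4 groups left out. Mean log2 FC at 24 hpa over those settings was -1.43 to -1.20 for *shh*, -1.05 to -0.88 for *ptch1* and -1.96 to -1.58 for *hhip*. The *smo* call held in 24 of the 29 settings and in 2 of the 4 means that left out 1 group.

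The stage comparison asked which genes differed between climax and premetamorphosis at the same time after amputation. *gli2* was higher in WT61 than in WT56 at all 3 times, and *shh* was lower at 6 hpa. These were the 4 calls among 44 tests, of which 3 were increases, and 1, for *shh*, was past a factor of 2. Over all genes, 20.7% of tests passed and 9.89% did so past that factor. In wild type 1 of 7 genes passed at 0 hpa, 2 of 7 at 6 hpa and 1 of 8 at 24 hpa, where 26.9%, 22.5% and 29.0% of all genes did. In TRDKO the count was 0 at each time, where 21.9%, 6.70% and 17.4% of all genes passed, and it was 0 by DESeq2 too, with an unadjusted p under 0.05 for 1, 2 and 3 genes. Of the 44 tests in both genotypes, 12 had an unadjusted p under 0.05.

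*gli2* was at 22.5 and 25.4 CPM in WT56 and 35.0 and 36.1 CPM in WT61 at 0 hpa. At 6 hpa it was at 26.0 and 20.6 CPM in WT56 and 50.2 and 37.5 CPM in WT61, and at 24 hpa at 28.0 and 27.1 CPM and 45.3 and 38.9 CPM. The 6 WT61 libraries, at 35.0 CPM or more, lay above each of the 18 others, at 31.1 CPM or less. The differences were 0.58 ± 0.16 (adjusted p = 0.0182) at 0 hpa, 0.91 ± 0.20 (adjusted p = 0.0148) at 6 hpa and 0.61 ± 0.13 (adjusted p = 0.00963) at 24 hpa. In TRDKO, where *gli2* was at 20.8 to 31.1 CPM over both stages, they were -0.07 ± 0.15 (adjusted p = 0.779), 0.21 ± 0.20 (adjusted p = 0.554) and 0.36 ± 0.13 (adjusted p = 0.0933), and none passed. The wild-type call was lost at 0 hpa without WT56 replicate 1 (0.48) or either WT61 library (0.60 and 0.58), at 6 hpa without WT56 replicate 2 (0.76) or WT61 replicate 1 (0.67), and at 24 hpa without either WT56 library (0.62 and 0.59) or WT61 replicate 1 (0.49).

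*shh* at 6 hpa was at 6.77 and 10.9 CPM in WT56 and 2.24 and 2.56 CPM in WT61 (log2 FC = -1.88 ± 0.45, adjusted p = 0.0197). The call was lost without WT56 replicate 2 (-1.49) or either WT61 library (-1.80 and -1.97). The stage difference of *shh* was -0.67 ± 0.28 (adjusted p = 0.0937) at 0 hpa and -0.74 ± 0.37 (adjusted p = 0.167) at 24 hpa in wild type, and -1.10 ± 0.44 (adjusted p = 0.172) at 6 hpa and -1.16 ± 0.35 (adjusted p = 0.0549) at 24 hpa in TRDKO. In 5 of the 6 comparisons *shh* was thus lower at stage 61 by its estimate, the exception being TRDKO at 0 hpa, with a log2 FC of 0.17. The notochord and cartilage sum was also lower at stage 61 at each time in both genotypes, and its part in the stage difference was not tested.

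The genotype comparison asked how far these levels depended on TR. Differences that passed were all at stage 61, and in each the level was lower in TRDKO61 than in WT61: *gli2*, *gli3* and *hhip* at 0 hpa and *gli2* at 24 hpa. These 4 calls, of which 1, for *hhip*, was past a factor of 2, came from 44 tests, of which 10 had an unadjusted p under 0.05. Over all genes, 10.6% of tests passed, 5.34% were lower and 4.70% passed with a change past a factor of 2. At stage 61, 3 of 7 genes passed at 0 hpa, 0 of 7 at 6 hpa and 1 of 8 at 24 hpa, where 29.9%, 9.89% and 15.5% of all genes did and 15.4%, 4.33% and 6.99% were lower. At stage 56 the count was 0 at each time by edgeR, where 5.93%, 0.206% and 2.37% of all genes passed, and 0 by DESeq2, with an unadjusted p under 0.05 for *shh* at 0 hpa alone. At stage 61 and 6 hpa DESeq2 also called 0, and 4 genes (*ptch1*, *gli2*, *gli3* and *hhip*) had an unadjusted p under 0.05. The stage and genotype comparisons at 1 time share the WT61 libraries.

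At 0 hpa *gli2* was at 35.0 and 36.1 CPM in WT61 and 22.3 and 28.0 CPM in TRDKO61 (log2 FC = -0.51 ± 0.15, adjusted p = 0.0229). *gli3* was at 19.8 and 25.5 CPM in WT61 and 15.4 and 14.7 CPM in TRDKO61 (log2 FC = -0.60 ± 0.16, adjusted p = 0.0144), and *hhip* at 4.21 and 4.23 CPM and 2.44 and 1.63 CPM (log2 FC = -1.01 ± 0.30, adjusted p = 0.0244). None of these 3 pairs of groups overlapped. At 24 hpa *gli2* was at 45.3 and 38.9 CPM in WT61 and 29.5 and 28.1 CPM in TRDKO61 (log2 FC = -0.53 ± 0.13, adjusted p = 0.0292), also without overlap. *gli1* did not overlap at 0 or 24 hpa either, but was higher in TRDKO61. Its means in TRDKO61 and WT61 were 8.53 and 5.57 CPM at 0 hpa and 6.78 and 5.40 CPM at 24 hpa. It passed no genotype comparison (lowest adjusted p = 0.136 by edgeR's quasi-likelihood test). How many of all genes lay without overlap was not counted. At 6 hpa the differences were -0.53 ± 0.20 (adjusted p = 0.123) for *gli2*, -0.77 ± 0.23 (adjusted p = 0.0692) for *gli3* and -1.65 ± 0.67 (adjusted p = 0.159) for *hhip*, and at 24 hpa -1.39 ± 0.59 (adjusted p = 0.143) for *hhip*.

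Each genotype call was lost without at least 1 library. At 0 hpa the call of *gli2* was lost without either WT61 library (-0.53 and -0.52) or TRDKO61 replicate 1 (-0.37), that of *gli3* without WT61 replicate 2 (-0.44) and that of *hhip* without either WT61 library (-1.02 and -1.05) or TRDKO61 replicate 2 (-0.80). At 24 hpa that of *gli2* was lost whichever of its 4 libraries was left out (-0.64 to -0.41), with the replicate number as a block and with only the 4 libraries compared. The 0 hpa calls of *gli2* and *hhip* were also lost under DESeq2 and with only the 4 libraries compared, and that of *hhip* in the fit to all 24 libraries. The block gave a call for *gli3* at 6 hpa (log2 FC = -0.76, adjusted p = 0.0484). At stage 56 the largest estimate for *shh* was at 0 hpa, where it was at 12.3 and 10.5 CPM in WT56 and 6.95 and 6.02 CPM in TRDKO56 (log2 FC = -0.85 ± 0.29, adjusted p = 0.108). Those 2 groups did not overlap, and the notochord and cartilage sum, 1753 to 1892 against 1036 to 1243 CPM, was lower in TRDKO56 as well. The part of this sum in that difference was not tested. In the same comparison *smo*, *gli1*, *gli2* and *gli3* did not overlap either, and were higher in TRDKO56. Their means were 35.9, 5.87, 26.2 and 19.8 CPM in TRDKO56 and 32.1, 5.03, 23.9 and 18.7 CPM in WT56, and none passed.

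**Figure D4:**
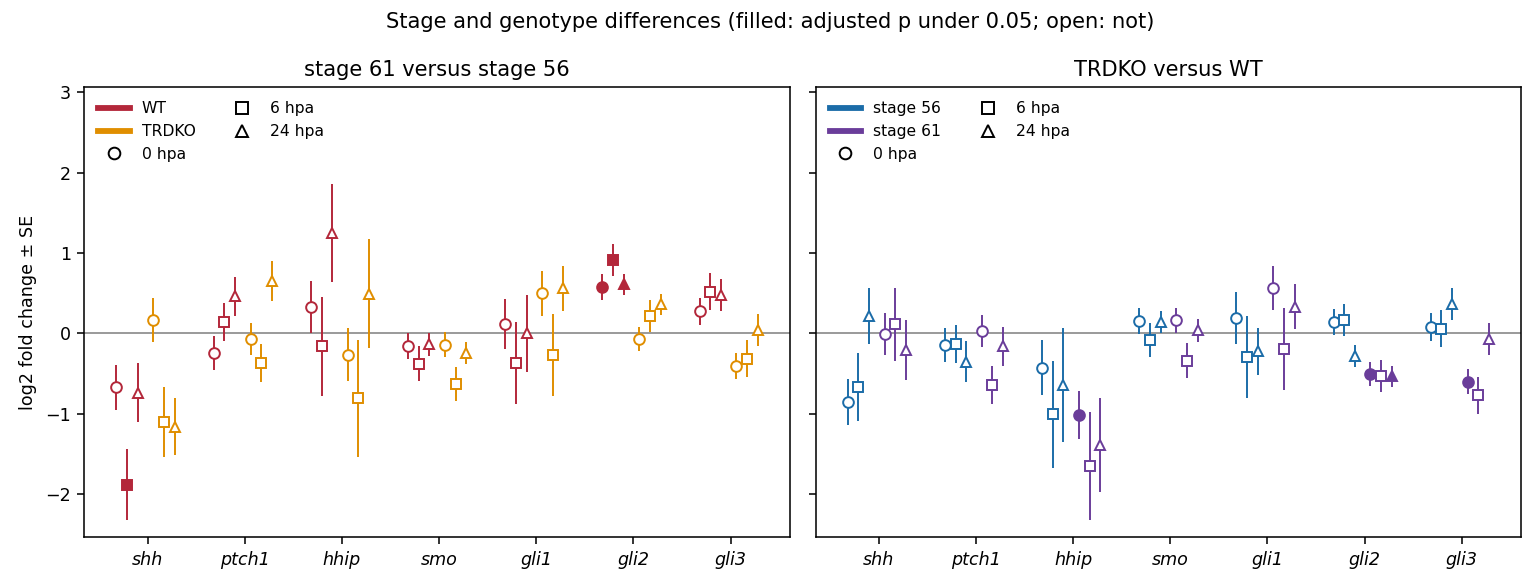
Log2 FC (vertical axis, bars ± 1 standard error) of the 7 genes other than *ihh* between stage 61 and stage 56 in wild type and TRDKO, and between TRDKO and wild type at both stages, at 0, 6 and 24 hpa, with filled points where the adjusted p was under 0.05. *gli2* is filled in wild type at all 3 times (0.58, 0.91 and 0.61), and the 4 filled genotype differences lie below 0 at stage 61.

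Whether a change differed between groups was tested in 15 further comparisons, each the difference of 2 changes. None of 110 tests of the 8 genes passed by edgeR's quasi-likelihood test, beside 1.36% of all gene tests, and 12 had an unadjusted p under 0.05. For the stage difference of the change, the share of all genes that passed was 0.0251%, 0.081% and 5.75% in wild type and 0.0312%, 1.0% and 1.72% in TRDKO, for 6 versus 0, 24 versus 6 and 24 versus 0 hpa in that order. For the genotype difference of the change it was 0.0252%, 0.0% and 1.67% at stage 56 and 0.0%, 0.0% and 0.0363% at stage 61. For the genotype difference of the stage difference it was 5.55%, 0.281% and 4.34% at 0, 6 and 24 hpa. DESeq2 also gave 0 calls. The genes called in 1 group and not in another are therefore not shown to differ between them. The stage difference at 0 hpa in TRDKO minus that in wild type was -0.65 ± 0.22 (adjusted p = 0.11) for *gli2* and -0.68 ± 0.23 (adjusted p = 0.115) for *gli3*. For *shh* the change at 24 hpa in TRDKO56 minus that in WT56 was 1.07 ± 0.37 (adjusted p = 0.165), and that in TRDKO61 minus that in TRDKO56 was -1.31 ± 0.43 (adjusted p = 0.16). For *ptch1* the change from 6 to 24 hpa in TRDKO61 minus that in TRDKO56 was 1.01 ± 0.32 (adjusted p = 0.152).

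Around these 8 genes, a list of 59 other genes of the pathway was examined, of which 57 were counted and 46 to 51 tested, depending on the comparison. At 24 against 0 hpa, 13 of 49 fell and 6 rose in WT56, 11 fell and 6 rose of 49 in TRDKO56, 6 fell and 4 rose of 49 in WT61 and 4 fell and 3 rose of 49 in TRDKO61. The shares called were thus 38.8%, 34.7%, 20.4% and 14.3%, beside 45.6%, 34.2%, 19.1% and 9.08% of all genes, which is near or below the background in the first 3 groups. Of all genes, 22.9%, 17.7%, 10.3% and 3.52% fell and 22.7%, 16.5%, 8.85% and 5.56% rose in that order. Receptors and co-receptors are here other proteins that bind the ligand or resemble those that do. Of the 9 tested, 6 fell in WT56, 6 in TRDKO56, 4 in WT61 and 1 in TRDKO61, and 0 rose in any group. The median log2 FC of the 9 was -0.91, -0.65, -0.29 and -0.40 in that order, where the median of all genes lay within 0.03 of 0.

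Among these, *gas1*, a co-receptor anchored in the membrane, fell at 24 hpa by edgeR's test in WT56 (log2 FC = -1.01 ± 0.13, adjusted p = 6.56e-05), TRDKO56 (log2 FC = -1.37 ± 0.16, adjusted p = 0.000644), TRDKO61 (log2 FC = -0.83 ± 0.15, adjusted p = 0.0134) and WT61 (log2 FC = -0.38 ± 0.12, adjusted p = 0.0398). Its WT56 and TRDKO56 calls held in all settings, the TRDKO61 call was lost without 0 hpa replicate 2 or 24 hpa replicate 1, and the WT61 call in 7 settings. *boc*, a co-receptor of the immunoglobulin superfamily, fell in WT56 (log2 FC = -0.99 ± 0.18, adjusted p = 0.000969) and TRDKO56 (log2 FC = -1.12 ± 0.13, adjusted p = 0.000597), whereas the values were 0.07 ± 0.12 (adjusted p = 0.758) in TRDKO61 and -0.12 ± 0.17 (adjusted p = 0.682) in WT61. *hhipl1*, which resembles *hhip* in sequence, fell in WT56 (log2 FC = -1.45 ± 0.28, adjusted p = 0.00113), TRDKO56 (log2 FC = -1.56 ± 0.38, adjusted p = 0.0139) and WT61 (log2 FC = -0.94 ± 0.23, adjusted p = 0.0134), and was -0.89 ± 0.32 (adjusted p = 0.117) in TRDKO61. The TRDKO56 call was lost whichever of its 4 libraries was left out, and the WT61 call without 0 hpa replicate 2 or 24 hpa replicate 2, under DESeq2 and in the fit to all 24 libraries.

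Of the target genes on the list, 6 of 11 fell and 1 rose in WT56, 5 of 12 fell and 1 rose in TRDKO56, 2 of 11 fell and 1 rose in WT61 and 3 of 12 fell and 0 rose in TRDKO61, to be read against the shares of all genes above. The targets that fell included genes known from the sclerotome, the part of the somite that forms vertebrae under Hedgehog signals. Whether these tails held sclerotome cells was not tested. *nkx3-2* fell in WT56 (log2 FC = -2.51 ± 0.49, adjusted p = 0.00144) and TRDKO56 (log2 FC = -3.71 ± 0.46, adjusted p = 0.0008), and *pax9* in WT56 (log2 FC = -1.39 ± 0.18, adjusted p = 8.72e-05) and TRDKO56 (log2 FC = -1.55 ± 0.18, adjusted p = 0.000641), and these 4 calls held in all settings. At stage 61 *nkx3-2* fell in WT61 (log2 FC = -1.34 ± 0.40, adjusted p = 0.0342), a call lost in 5 settings, and was -1.31 ± 0.39 (adjusted p = 0.0661) in TRDKO61. *pax9* fell in TRDKO61 (log2 FC = -0.83 ± 0.17, adjusted p = 0.0215), a call lost whichever of its 4 libraries was left out, and was -0.49 ± 0.17 (adjusted p = 0.0641) in WT61. *pax1* fell in WT56 (log2 FC = -1.89 ± 0.54, adjusted p = 0.0129) and TRDKO56 (log2 FC = -3.40 ± 0.67, adjusted p = 0.00573), where leaving out 0 hpa replicate 1 of WT56 brought the first value to -0.67 and ended the call, as did leaving out 24 hpa replicate 2 or using DESeq2, and the second call was lost without TRDKO56 0 hpa replicate 2. Its values at stage 61 were 0.05 ± 0.46 (adjusted p = 0.963) in WT61 and -0.52 ± 0.61 (adjusted p = 0.632) in TRDKO61. The values of *nkx3-2* and *pax1* rest on few counts. At 24 hpa *nkx3-2* had 5 to 10 counts per library in WT56 and 4 in TRDKO56. *pax1* had 2 to 18 in WT56 at 0 hpa and 2 to 5 in TRDKO56 at 24 hpa. *pthlh*, the gene of a secreted peptide of cartilage growth, was the target that rose, in WT56 (log2 FC = 1.65 ± 0.48, adjusted p = 0.0134), TRDKO56 (log2 FC = 1.70 ± 0.51, adjusted p = 0.0299) and WT61 (log2 FC = 1.89 ± 0.52, adjusted p = 0.0237), and the call was lost in WT56 without 0 hpa replicate 1, in TRDKO56 whichever of 4 libraries was left out and in WT61 in 3 settings. *pthlh* too rests on few counts: at 0 hpa it had 6 to 10 per library in WT56, 8 to 9 in TRDKO56 and 6 to 7 in WT61.

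Of the 24 cytoplasmic and ciliary genes tested, 5 rose and 1 fell in WT56, 5 rose and 0 fell in TRDKO56, and 2 rose and 0 fell in each of WT61 and TRDKO61, with median log2 FC of 0.12, 0.13, 0.02 and 0.07 in that order. Of all genes, 22.7%, 16.5%, 8.85% and 5.56% rose and 22.9%, 17.7%, 10.3% and 3.52% fell in the same order, and the counts are to be read against these shares. *evc2*, which acts beside Smoothened at the base of the cilium, rose in all 4 groups, in TRDKO61 with a log2 FC of 1.55 ± 0.13 (adjusted p = 0.000411). In TRDKO56 it was 0.63 ± 0.13 (adjusted p = 0.00731), a call lost without 0 hpa replicate 2 or 24 hpa replicate 1. Mean *evc2* went from 21.6 CPM at 0 hpa to 39.0 CPM at 24 hpa in WT56. In WT61 it went from 24.2 to 49.15 CPM, beside 53.0 CPM in TRDKO61 at 24 hpa. Of the 4 or 5 genes for the ligand and its release that could be tested, 0 fell in any group and 1 rose in each of WT61 and TRDKO61. *foxa2*, a floor plate gene at 1.91 CPM or less in every library, fell in all 4 groups, from -2.22 ± 0.59 (adjusted p = 0.0472) in TRDKO61 to -1.35 ± 0.40 (adjusted p = 0.0348) in WT61, and each of its 4 calls was lost in at least 5 settings, DESeq2 among them. The summed floor plate markers, *foxa2* among them, fell by their mean in wild type only. Mean sums at 24 hpa, with those at 0 hpa in brackets, were 103.9 (125.5) CPM for WT56 and 104.3 (117.8) CPM for WT61. For TRDKO56 they were 131.9 (120.0) CPM and for TRDKO61 122.7 (115.6) CPM, with overlapping libraries in TRDKO61. Changes of this sum were not tested. *dhh*, *nkx2-2* and *nkx6-1* were too low to be tested.

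**Figure D5:**
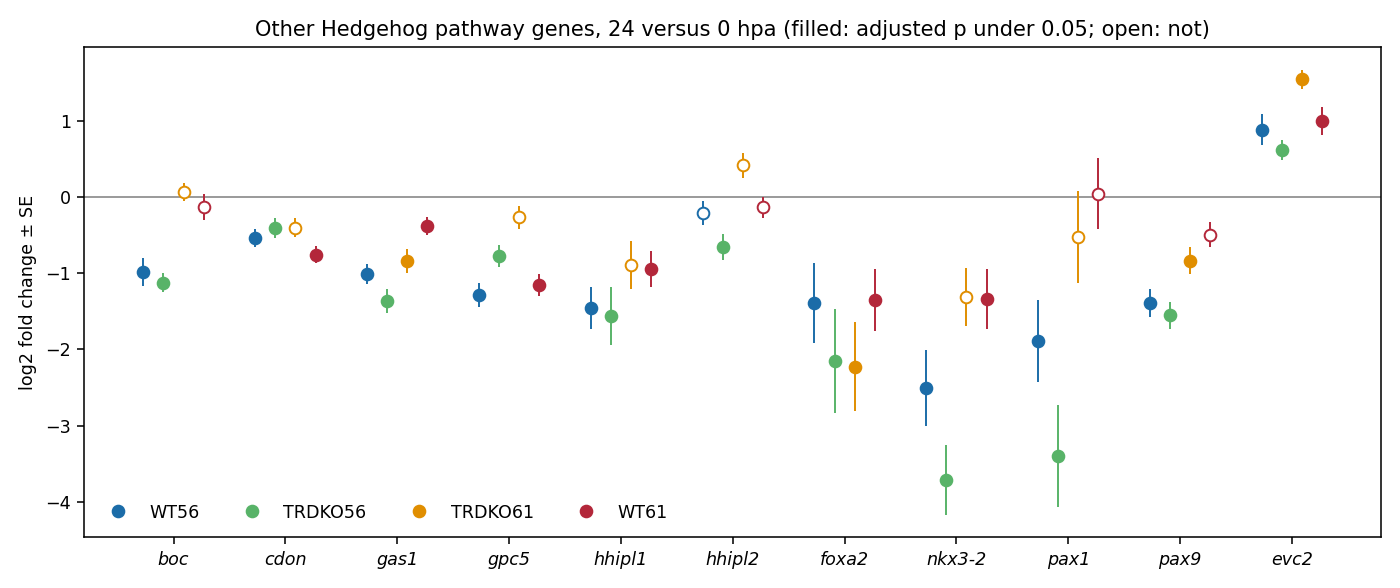
Log2 FC at 24 versus 0 hpa (vertical axis, bars ± 1 standard error) of 11 other pathway genes in the 4 groups, 1 colour each, with filled points where the adjusted p was under 0.05. *gas1* is filled below 0 in all 4 groups, *boc* in WT56 and TRDKO56 only, and *evc2* is filled above 0 in all 4, at 1.55 in TRDKO61.

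Between stages, 9 of 48 other pathway genes were higher and 2 lower in WT61 than in WT56 at 0 hpa, 7 of 46 and 1 at 6 hpa and 9 of 49 and 2 at 24 hpa. Of all genes, 26.9%, 22.5% and 29.0% passed at these times and 12.1%, 10.2% and 13.3% were higher in WT61. In TRDKO, 4 of 48 were higher and 3 lower at stage 61 at 0 hpa, 1 of 46 and 1 at 6 hpa. At 24 hpa 11 of 49 were higher and 1 lower. The shares called in TRDKO were 14.6%, 4.35% and 24.5%, beside 21.9%, 6.70% and 17.4% of all genes. *gas1* was higher in WT61 at 0 hpa (log2 FC = 1.42 ± 0.16, adjusted p = 5.74e-05), 6 hpa (log2 FC = 1.61 ± 0.24, adjusted p = 0.00365) and 24 hpa (log2 FC = 2.06 ± 0.12, adjusted p = 7.15e-05), and in TRDKO61 than in TRDKO56 at 0 hpa (log2 FC = 0.93 ± 0.15, adjusted p = 0.00105) and 24 hpa (log2 FC = 1.44 ± 0.12, adjusted p = 0.00057). *hhipl2*, another relative of *hhip*, was higher in WT61 by 2.10 ± 0.17 (adjusted p = 5.93e-06) at 0 hpa, 2.46 ± 0.32 (adjusted p = 0.00268) at 6 hpa and 2.19 ± 0.17 (adjusted p = 0.000169) at 24 hpa. It was also higher in TRDKO61 than in TRDKO56, by 0.82 ± 0.16 (adjusted p = 0.00295), 1.41 ± 0.31 (adjusted p = 0.0352) and 1.88 ± 0.16 (adjusted p = 0.000644) in that order, the call at 6 hpa being lost whichever of its 4 libraries was left out. *cdon* was higher in WT61 than in WT56 at 0 hpa (log2 FC = 1.18 ± 0.13, adjusted p = 6.8e-05), a call that held in all settings. Between genotypes at stage 61 and 0 hpa, 8 of 48 other pathway genes were lower and 1 higher in TRDKO61, where 15.4% of all genes were lower and 29.9% passed. They included *gpc5*, a glypican that binds the ligand at the cell surface (log2 FC = -1.38 ± 0.15, adjusted p = 7.47e-05).

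Genes with the course most like that of a pathway gene were found by Pearson's r of mean log2 CPM over the 12 conditions. They were sought among 15208 genes with a mean of at least 1 CPM, as a description only, since the conditions share groups and times. For *shh* these were *col9a1* (r = 0.953), *klhdc1* (0.932), *eci2* (0.929), *kazald1* (0.929) and *chadl* (0.928), of which *col9a1* encodes a cartilage collagen. For *ptch1* they were *kif17* (0.985), *sh2d5* (0.980), *hspa12b* (0.962), *LOC101730300* (0.957) and *zic4* (0.954), with *hhip* at rank 30 (r = 0.913). For *gli1* they were *fam20a.2* (0.818), *LOC116410418* (0.808), *fxyd3* (0.796), *vwa3b* (0.784) and *cited4* (0.782), all less close than those of the other pair. Between *shh* and *ptch1* r was 0.574, between *shh* and *hhip* 0.584 and between *shh* and *gli2* -0.632, each over 12 conditions.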

How the data were processed

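RNA from tails of 12 conditions, 2 libraries each, was made by the authors into poly-A-selected stranded libraries and sequenced as paired reads of 100 bases. Per the labels, reads were trimmed with cutadapt 3.2, aligned with STAR 2.7.7a to genome v10.0 and counted by featureCounts (Subread 2.0.1). The deposited values are raw counts per gene, and whether counting used strand is not given in the sources used here. Columns of gene coordinates and of exon length in bases were used as deposited by the authors. Groups came from the sample titles. There were 2 genes broken over 3 lines, which were rejoined, and 0 rows named no gene. Other than *ihh*, each of the 8 genes had at least 7 counts in every library, and *ihh* had 2 to 18, so its levels carry the widest counting error.

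Each comparison was a two-sided edgeR quasi-likelihood test (edgeR 4.0.16, limma 3.58.1, statmod 1.5.0, R 4.3.3) with TMM normalisation and edgeR's filter on low counts. Time comparisons, and their differences between stages, were fitted to the 8 libraries of 1 genotype and 2 time points. Differences of a time change between genotypes used the 8 libraries of 1 stage and 2 time points. Stage and genotype comparisons, and their difference, used the 8 libraries of 1 time point. The mean change of the 4 groups used all 24 libraries. Benjamini-Hochberg adjustment was over all genes tested, with a call at an adjusted p under 0.05. CPM used TMM factors over all 24 libraries. A simulation with known changes covered 1 set of 8 libraries, with large changes in well-counted genes and the same spread for every gene. It does not show how the fits perform for genes with few counts, such as *ihh*. Alternatives were DESeq2 1.42.0, RLE and upper-quartile factors, no filter, other sets of libraries in the fit, the replicate number as a block, a limit on fold change and each library left out. Likeness was measured on log2 of CPM with 0.5 added, averaged over the libraries of a condition. Named were all 8 genes, *thra* and *thrb*, and the 5 genes most like *shh*, *ptch1* and *gli1*. Other pathway genes were named from those past the adjusted p and a log2 FC of 1 in a comparison described, 4 at most in a sentence. Not every gene that passed is named, and not every value of those named is given. The genes, the lists and the tests were chosen with earlier results of these data known. By symbol and start, 99.3% of 26481 genes matched the RefSeq annotation of UCB_Xtro_10.0.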

Additional observations from a re-analysis of the deposited data

Results flagged for a closer look

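The 8 genes themselves gave no difference of changes that passed the test. Among the other pathway genes, 3 of 727 tests (0.41%) over the 15 comparisons did by edgeR's quasi-likelihood test, below the 1.36% of all gene tests. The co-receptor *boc* fell at 24 hpa in TRDKO56 and not in TRDKO61, and the stage 61 change minus the stage 56 change was 1.19 ± 0.18 on the log2 scale (adjusted p = 0.0185). This call was lost without TRDKO56 0 hpa replicate 1 (1.17) or replicate 2 (1.2), TRDKO56 24 hpa replicate 1 (1.11) or TRDKO61 0 hpa replicate 1 (1.2). *evc2* rose more at 24 hpa in TRDKO61 than in TRDKO56, by 0.92 ± 0.18 on the log2 scale (adjusted p = 0.0445), a call lost with the replicate block, in 1 fit to the 24 libraries and whichever of 8 libraries was left out (0.83 to 1.01). *hhipl2* had a smaller rise with stage at 0 hpa in TRDKO than in wild type, by -1.29 ± 0.23 on the log2 scale (adjusted p = 0.0084), a call lost in 1 fit to the 24 libraries and without WT56 0 hpa replicate 1 (-1.01).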

How the results depend on the processing

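The 16 decreases over time numbered 12 with the fold limit, 14 with the replicate block and 12 to 19 with 1 library left out. The 4 stage calls became 1 with the fold limit and ranged from 2 to 5 with 1 library left out (2 without WT56 6 hpa replicate 2 or WT61 6 hpa replicate 1). The 4 genotype calls became 1 with the fold limit, 2 by DESeq2, 2 when only the 4 libraries compared were fitted, and 1 to 4 with 1 library left out (2 without WT61 0 hpa replicate 1 and 1 without replicate 2). The 0 calls among differences of changes became 1 without a filter on low counts (*shh*, TRDKO56 against WT56 at 24 versus 0 hpa, adjusted p = 0.0491) and 0 to 1 with 1 library left out, the 1 being *gli2* at 0 hpa without TRDKO61 0 hpa replicate 2 (log2 FC = -0.82, adjusted p = 0.0303). The mean change of the 4 groups, chosen after seeing the data, gave 4, 1 and 3 calls for 6 versus 0, 24 versus 6 and 24 versus 0 hpa, and 4 to 5, 0 to 2 and 3 to 4 with 1 library left out. Other normalisations (RLE and upper-quartile) and no filter kept 24 of the 24 calls of single comparisons.

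No called value of the 8 genes changed sign under any alternative run. Of values that were not called, *gli1* at 6 hpa in WT56 (log2 FC = 0.56) ranged from -0.30 without WT56 6 hpa replicate 2 to 1.09 without replicate 1, and *shh* at 6 hpa in TRDKO56 (log2 FC = -0.23) from -0.95 without TRDKO56 6 hpa replicate 2 to 0.26 without replicate 1. *pax1* at 24 hpa in WT61 (0.05) ranged from -0.0205 without WT61 0 hpa replicate 1 to 0.16 without replicate 2. The cause was not tested. Libraries with the same replicate number were checked for deviations in common: their correlation ran from -0.304 to 0.288 over 24 pairs of groups, over 0.1 in 6 and under -0.1 in 8. The 4 pairs of groups at 6 hpa gave 0.102 to 0.288, and with 2 numbers per group the check does not show whether the libraries are paired. With the replicate block the calls numbered 14, 4, 4 and 0 over time, stage, genotype and differences of changes, and 4, 1 and 4 for the mean changes. Of the 5 genes most like *shh*, *ptch1* and *gli1*, Spearman's rho kept 1, 1 and 0, and a minimum of 5 CPM kept 3, 5 and 3. The gene that rho kept for *shh* was *klhdc1*, and *col9a1* was lost. With other scaling factors 175 of 192 group means of CPM moved by less than 1 SD. Among the 8 genes depth limits *ihh* and *hhip* most, and 2 libraries per condition limit each call.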
